A study of Homo with 2 samples.

Results

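Fibroblast growth factor (FGF) signalling was described in human blastoids through 10 genes, namely the ligand FGF2, the receptors FGFR1, FGFR2 and FGFR3, and the ERK targets and feedback inhibitors DUSP6, SPRY1, SPRY2, SPRY4, ETV4 and ETV5. They were chosen by name, as the rows with these symbols, and all 10 were present in both count tables, out of 28363 genes in all. Blastoids are aggregates of pluripotent cells that resemble the blastocyst. The single group comprised 2 single-cell RNA sequencing libraries of blastoids made from the human embryonic stem cell line KhES1, so every result is for 1 cell line and 1 condition. The stem cells were kept in mTeSR-1 medium on Matrigel, aggregated for 24 h in microwells and cultured for 4 days in a hydrogel, in high-glucose DMEM to which 10% serum (FBS) and 10 µM Y27632, a ROCK inhibitor, were added. The labels name no FGF added to this medium.

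FGF ligands bind receptor tyrosine kinases with the help of heparan sulfate, and the receptors act through RAS and MEK on the kinases ERK1 and ERK2. Active ERK raises transcription of its own inhibitors, among them the ERK phosphatase DUSP6 and the Sprouty proteins, and of the ETS factors ETV4 and ETV5, so the mRNA of these genes is often used as a readout of the pathway. In human embryonic stem cells FGF2 supports the pluripotent state, and in the mouse blastocyst FGF4 from the epiblast acts on the trophectoderm and the primitive endoderm through FGFR1 and FGFR2.

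Library 1 held 38665475 unique molecular identifiers (UMIs, counted molecules) over 1988 barcodes and library 2 held 45208758 over 2601. Barcodes were kept where 1000 or more genes were detected and mitochondrial transcripts made up no more than 20% of UMIs, which, less the doublets called, left 933 cells in library 1 and 1518 in library 2, with no barcode shared between them. The labels give the cell type as embryonic stem cells, and the defining genes of that type were unevenly present. A trophectoderm/amnion-like class held 727 and 967 cells in libraries 1 and 2, and a pluripotent epiblast-like class held 69 and 94. The former was named from a list that joins markers of the outer layer of the blastocyst and of the amnion. GABRP, ISL1 and VTCN1 are on that list, and the name does not choose between these identities. NANOG averaged 0.347 CPM (counts per 1000000, here the gene's UMIs against those of all genes) in the trophectoderm/amnion-like class and 27.1 CPM in the epiblast-like class, SOX2 averaged 1.91 CPM in the trophectoderm/amnion-like class and 87.2 CPM in the epiblast-like class, and GATA3 averaged 155 CPM in the trophectoderm/amnion-like class and 80.3 CPM in the epiblast-like class. POU5F1 was lower but present in the trophectoderm/amnion-like class, at 31.6 and 36.9 CPM, against 467 and 672 CPM in the epiblast-like class. It was seen in 60.1% and 58.5% of trophectoderm/amnion-like cells and 92.8% and 92.6% of epiblast-like cells, and, with each cell thinned to 5000 UMIs, in 13.4% and 16.0% of trophectoderm/amnion-like cells and 75.0% and 82.2% of epiblast-like cells. A syncytiotrophoblast-like cluster of 79 and 93 shallow cells and unnamed clusters of 58 and 364 shallow cells made up the rest. Library 2 held more of the shallow cells, with 381 cells under 5000 UMIs against 110 in library 1. Cells were clustered on a random part of the UMIs without the 10 genes, and levels and tests were taken from the other part.

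Over all cells the 10 genes had close levels in the libraries. FGFR2 stood at 173 and 177 CPM in libraries 1 and 2, FGFR1 at 143 and 141, SPRY2 at 66.9 and 73.0, and FGF2 at 28.4 and 30.7. The other members were sparse, between 6.24 CPM for ETV4 in library 1 and 13.0 CPM for ETV5 in library 2. DUSP6 differed most, at 8.41 CPM in library 1 and 12.4 CPM in library 2. The chemistry tags the 3' end and no gene lengths were applied, so levels are compared between cells for 1 gene and not between genes.

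The main contrast was between the trophectoderm/amnion-like and the epiblast-like class, and it divided the pathway. FGF2, FGFR1, DUSP6, SPRY4, ETV4 and ETV5 were lower in trophectoderm/amnion-like cells, by 3.21-fold for FGFR1 to 12.6-fold for SPRY4, while FGFR2 and SPRY2 were higher, by 1.84-fold and 1.61-fold. With edgeR's quasi-likelihood test, 9 of the 10 members could be tested, of which 2 were higher and 6 lower at an adjusted p under 0.05, and FGFR3 passed in neither direction. Of all 9553 genes tested, 16.2% were called higher and 22.9% lower. The median log2 fold change was -1.73 over the 9 members and -0.11 over all genes tested. A gene passed the filter on low counts if enough of the sums of the fit, shallow clusters included, were above its cutoff. DUSP6, SPRY4, ETV4 and ETV5 passed it through the epiblast-like class, where they are high. FGF2 was high enough there and also in the unnamed cluster 8, at 26.5 and 54.3 CPM on 3 and 4 UMIs. The count of lower calls and the median of the members therefore carry that selection. In this contrast 39.1% of genes were called in either direction.

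**Figure D1:**
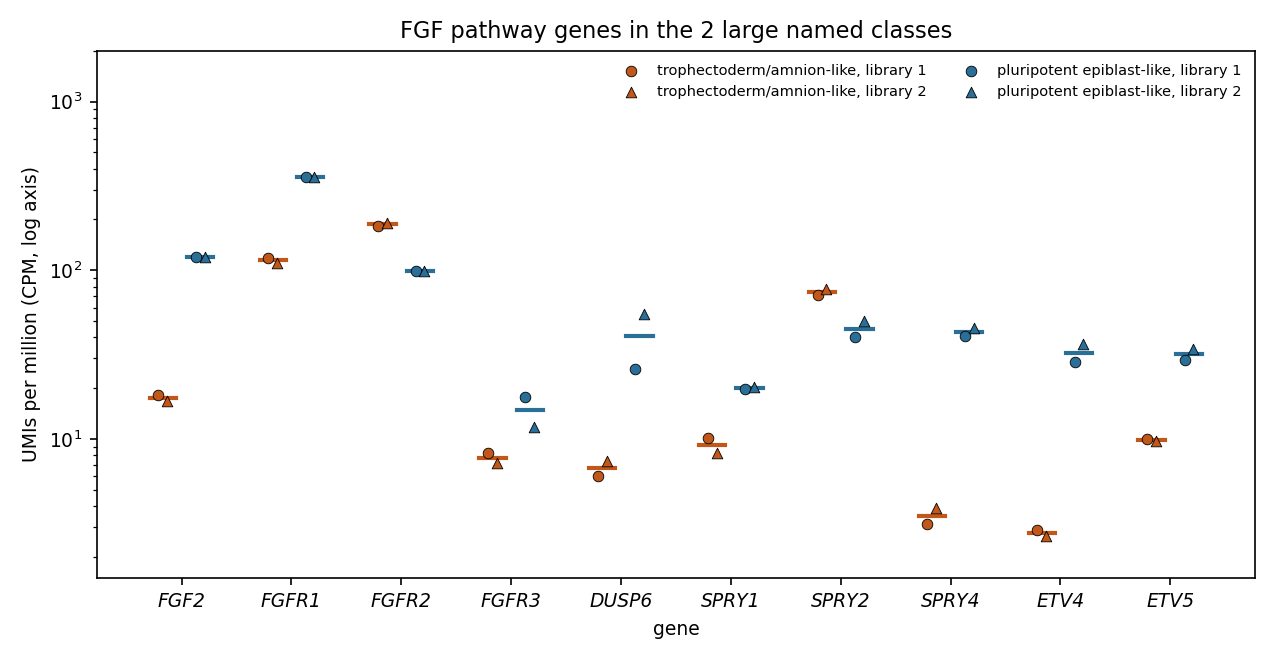
Level of each of the 10 genes (CPM, log axis) in trophectoderm/amnion-like cells (orange, left) and epiblast-like cells (blue, right), with 1 point per library and a bar at the mean of both. FGF2 stood at 18.2 and 16.8 CPM in trophectoderm/amnion-like cells and at 120 in both libraries in epiblast-like cells, whereas FGFR2 and SPRY2 were higher in trophectoderm/amnion-like cells.

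FGF2, the ligand, had 18.2 and 16.8 CPM in the trophectoderm/amnion-like cells of libraries 1 and 2, against 120 CPM in the epiblast-like cells of either library. The values of the classes did not overlap, and the log2 fold change was -2.81 (SE 0.19, adjusted p = 3.36e-10, edgeR). A lack of overlap, here and below, is between 2 values per group. How many of all genes show it was not counted. Although the epiblast-like class held only 10.6% and 12.1% of all UMIs in libraries 1 and 2, it held 43.7% and 49.7% of the FGF2 UMIs.

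The receptors FGFR1 and FGFR2 ran in opposite directions. FGFR1 had 118 and 111 CPM in trophectoderm/amnion-like cells, against 356 and 357 CPM in epiblast-like cells, a log2 fold change of -1.68 (SE 0.23, adjusted p = 5.14e-06, edgeR). FGFR2 had 183 and 190 CPM in trophectoderm/amnion-like cells, against 98.5 and 98.8 CPM in epiblast-like cells, a log2 fold change of 0.88 (SE 0.20, adjusted p = 0.00164, edgeR). For both receptors the values of the classes did not overlap and the values of the libraries were close. FGFR3 was sparse, with 8.24 and 7.15 CPM in trophectoderm/amnion-like cells and 17.8 and 11.7 CPM in epiblast-like cells. Its log2 fold change of -0.95 (SE 0.40) missed the threshold (adjusted p = 0.0695, edgeR), and it ranged from -1.04 to -0.42 over 12 other settings, 6 of which called it.

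DUSP6, a phosphatase that dephosphorylates ERK in the cytoplasm, had 6.06 and 7.36 CPM in trophectoderm/amnion-like cells, against 25.9 and 55.1 CPM in epiblast-like cells. The epiblast-like value of library 2 was far above that of library 1, and both were above either trophectoderm/amnion-like value. The log2 fold change was -2.59 (SE 0.28, adjusted p = 3.45e-07, edgeR), with -2.11 in library 1 and -2.97 in library 2.

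The Sprouty genes encode inhibitors of receptor tyrosine kinase signalling, and SPRY4 and SPRY2 were called in opposite directions. SPRY4 had 3.12 and 3.87 CPM in trophectoderm/amnion-like cells, against 40.6 and 45.6 CPM in epiblast-like cells, a log2 fold change of -3.65 (SE 0.28, adjusted p = 3.48e-09, edgeR). SPRY2 had 71.6 and 77.1 CPM in trophectoderm/amnion-like cells, against 40.1 and 49.8 CPM in epiblast-like cells, a log2 fold change of 0.69 (SE 0.20, adjusted p = 0.00913, edgeR). For both genes the values of the classes did not overlap. SPRY1 had 10.1 and 8.24 CPM in trophectoderm/amnion-like cells and 19.8 and 20.4 CPM in epiblast-like cells. Its level was below the filter on low counts, a CPM cutoff set over all sums of the fit, shallow clusters included, so it was not tested. FGFR3, of fewer UMIs, passed the filter. Its highest levels in that fit were 22.4 CPM on 8 UMIs in library 1 syncytiotrophoblast-like cells and 40.7 CPM on 3 UMIs in library 2 cluster 8. In the 8 other settings that tested SPRY1, its log2 fold change lay between -1.26 and -0.97, and 7 of them called it. The DESeq2 Wald test gave an adjusted p of 0.0624 for SPRY1.

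The ETS factors were both lower in trophectoderm/amnion-like cells. ETV4 had 2.87 and 2.67 CPM in trophectoderm/amnion-like cells, against 28.4 and 36.6 CPM in epiblast-like cells, a log2 fold change of -3.58 (SE 0.35, adjusted p = 1.42e-07, edgeR). ETV5 had 9.93 and 9.76 CPM in trophectoderm/amnion-like cells, against 29.4 and 34.0 CPM in epiblast-like cells, a log2 fold change of -1.73 (SE 0.27, adjusted p = 4.65e-05, edgeR). The small epiblast-like class held most of the ETV4 UMIs, 60.2% in library 1 and 66.7% in library 2.

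All 8 calls held in each of 13 other settings of the classes comparison, among them another split of the UMIs, another clustering resolution, and a trophectoderm/amnion-like class without clusters 0 and 4, whose 10 leading genes held a marker of another class and none of their own. The p-values measure only how the differences between classes varied between these libraries, and that variation may be technical, since the labels do not place the libraries in separate cultures.

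**Figure D2:**
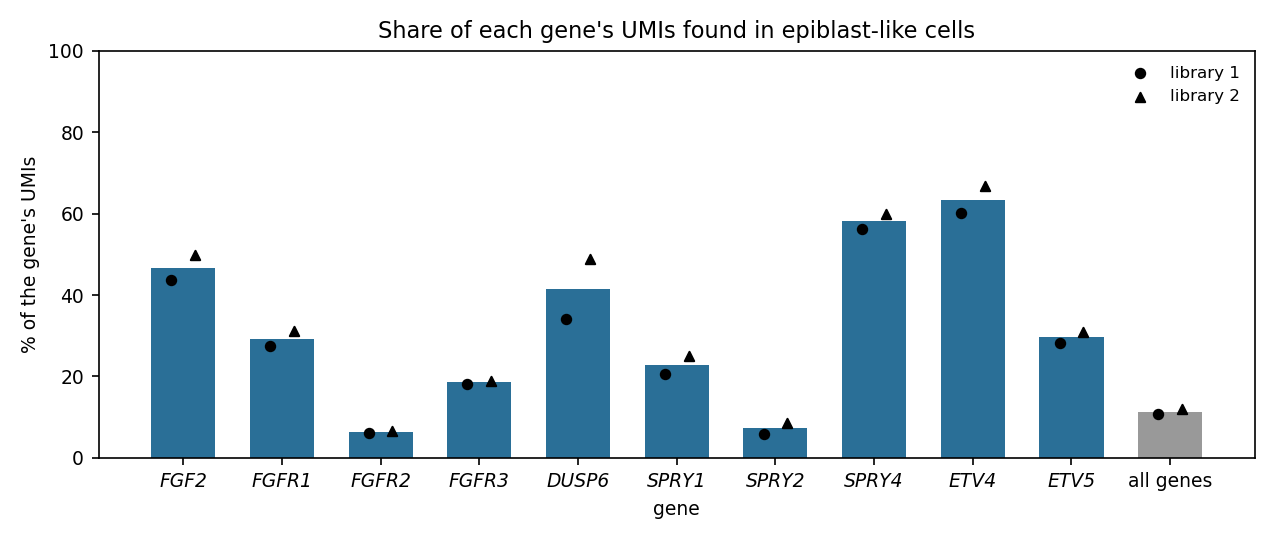
Share of each gene's UMIs that lay in epiblast-like cells (%, bar at the mean of both libraries, points for libraries 1 and 2), with all genes together as the last bar. ETV4 (60.2% and 66.7%), SPRY4 (56.3% and 60.0%) and FGF2 (43.7% and 49.7%) stood above the 10.6% and 12.1% of all UMIs, and FGFR2 (6.14% and 6.71%) and SPRY2 (5.90% and 8.62%) below.

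The same pattern was present in the share of single cells with a UMI, after each cell was thinned to 5000 UMIs to remove the difference in depth. Of trophectoderm/amnion-like cells, 7.48% in library 1 (95% exact interval 5.65 to 9.66) and 7.94% in library 2 (6.29 to 9.87) had an FGF2 UMI, against 38.3% (26.1 to 51.8) and 31.1% (21.8 to 41.7) of epiblast-like cells. SPRY4 was seen in 1.27% and 1.29% of trophectoderm/amnion-like cells and in 16.7% and 12.2% of epiblast-like cells. FGFR2 ran the other way, with 55.6% and 56.1% of trophectoderm/amnion-like cells and 33.3% and 27.8% of epiblast-like cells. Before thinning, the FGF2 shares were 36.6% and 31.5% of trophectoderm/amnion-like cells and 84.1% and 80.9% of epiblast-like cells, whose median depths were 37654 and 33359 UMIs in the trophectoderm/amnion-like class and 52670 and 49138 in the epiblast-like class. As a guide to free RNA, ZIC2, an epiblast marker, was seen in 0 of 709 (up to 0.519%) and 2 of 932 (0.026 to 0.773%) thinned trophectoderm/amnion-like cells, against 26.7% and 41.1% of epiblast-like cells. In trophectoderm/amnion-like cells the intervals of every member but ETV4 and SPRY4 lay above that of ZIC2 in both libraries. Those of ETV4 in library 1 (0.154 to 1.44%) and SPRY4 in library 2 (0.667 to 2.24%) overlapped it. FGFR1 was seen in 65.0% and 73.3% of thinned epiblast-like cells, more often than ZIC2, so ZIC2 sets no bound for it. In library 1 alone, FGF2 (38.3%) and FGFR2 (33.3%) were also seen more often than ZIC2 (26.7%) in epiblast-like cells. ZIC2 therefore sets no bound for FGF2 and FGFR2 in that library. The part of free RNA was not tested. Intervals cover counting error only.

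A trophectoderm/amnion-like cell held a mean of 1.53 and 1.51 of the 10 genes in libraries 1 and 2 after thinning, against 2.38 and 2.29 in an epiblast-like cell.

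The wider pathway was read from lists of genes grouped by role, and no list was tested as a whole. Each list's count stands beside the 16.2% of all genes called higher and 22.9% called lower in the same contrast. As with the members, a sparse gene could pass the filter on low counts through the class where it is high. Among 21 other FGF ligands and FGF homologous factors, 19 were in both tables and 2 had enough counts to be tested. FGF13 and FGF12, which belong to the homologous factors that stay inside the cell and bind sodium channels, were both lower in trophectoderm/amnion-like cells. FGF13 had 30.9 and 24.9 CPM in those cells and 368 and 335 CPM in epiblast-like cells, a log2 fold change of -3.69 (SE 0.33, adjusted p = 1.56e-08, edgeR). Without the filter on low counts, FGF1, FGF3, FGF4, FGF17, FGF18 and FGF19 were also called lower. That fit called 2756 of 25505 genes lower and 2390 higher. Some of these ligands rested on few UMIs. In the part tested, FGF3 had 7 in epiblast-like and 1 in trophectoderm/amnion-like cells. With all UMIs counted, 18 of the 20 FGF18 UMIs in epiblast-like cells of library 1 lay in 1 cell. FGF4 was seen as 15 UMIs in 7 epiblast-like cells of library 1 and 130 UMIs in 23 of library 2, with 36 in a single cell, and as 1 UMI in all trophectoderm/amnion-like cells.

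Of 23 receptors, co-receptors and heparan sulfate enzymes, 15 were tested, of which 3 were higher in trophectoderm/amnion-like cells, 5 lower and 7 passed in neither direction. FLRT3, a membrane protein that binds FGF receptors, had a log2 fold change of 2.36 (SE 0.27), and the syndecan SDC3 one of 1.90 (SE 0.28). The glypican GPC4 (-1.71) and the heparan sulfate 6-O-sulfotransferases HS6ST2 (-1.70) and HS6ST1 (-1.33) were lower, as was the syndecan SDC2 (-1.02). Their adjusted p-values lay between 4.77e-07 for FLRT3 and 0.000503 for HS6ST1 (edgeR).

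Of the 22 genes of the cascade from RAS to ERK, 20 were tested, with 5 higher in trophectoderm/amnion-like cells, 2 lower and 13 in neither direction, and a median log2 fold change of 0.12. The adaptors GAB1 (1.07) and FRS2 (0.76), the exchange factor SOS1 (0.92) and the kinase RPS6KA3 (0.89) were higher, as log2 fold changes. The adaptor SHC1 was lower, at 16.3 and 14.2 CPM in trophectoderm/amnion-like cells against 26.4 and 32.1 CPM in epiblast-like cells.

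Of 23 other ERK targets and feedback inhibitors, 16 were tested, with 1 higher, 5 lower and 10 in neither direction. CCND1, which encodes cyclin D1, had 0.749 and 0.764 CPM in trophectoderm/amnion-like cells, against 111 and 132 CPM in epiblast-like cells (log2 fold change -7.32, SE 0.30, adjusted p = 6.59e-13, edgeR). IL17RD, an FGF receptor inhibitor also called SEF, was lower by a log2 fold change of -2.59, IER3 by -2.48, the ETS factor ETV1 by -2.34 and the RAS inhibitor SPRED1 by -1.01. The ephrin receptor EPHA4 was the 1 gene called higher, at 1.17.

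The epiblast-like class was not uniform, and its 5 sub-clusters, called e0 to e4, differed in the 10 genes. In e4, of 14 cells in library 1 and 16 in library 2, the primitive streak and mesoderm markers TBXT and MESP1 averaged 240 and 286 CPM. Taken alone, e4 was nearest to the primitive streak and mesoderm list. It held 68 of the 201 SPRY4 UMIs and 60 of the 197 DUSP6 UMIs tested in the class. In e1, of 15 and 10 cells, GATA3 averaged 237 CPM beside POU5F1 at 302 CPM. Taken alone, e1 was nearest to the trophectoderm/amnion list, with KRT23, TP63, NR2F2 and KRT7 among its 10 leading genes, and it counts as epiblast-like here only as part of the cluster it was divided from. Its cells were deep, with medians of 79637 and 58058 UMIs, only 5 of 2456 barcodes were called doublets over both libraries, and whether e1 holds further ones was not tested. The 8 calls between the classes held without e1, and no setting left out e4. In e3, of 18 and 29 cells, SOX2 and NANOG were among the 10 leading genes and POU5F1 averaged 793 CPM. In e2, of 13 and 12 cells, POU5F1 averaged 683 CPM and the pluripotent epiblast list was the nearest, but no gene of that list was among its 10 leading genes, which UNC13C, CLDN10 and SYNPR headed, and GATA3 stood at 39.3 and 137 CPM. The last, e0, had 9 cells in library 1 and was left out of tests; its leading genes were FGF4, MIXL1 and CER1. Sub-clusters are small, and their fit had 3 residual degrees of freedom.

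The mesoderm-like e4 combined the highest DUSP6 and SPRY4 levels with the lowest FGFR2. DUSP6 had 68.6 and 92.0 CPM in e4, against 3.75 and 15.8 CPM in e2, a log2 fold change of 2.94 (SE 0.46, adjusted p = 0.000533, edgeR). SPRY4 had 92.3 and 89.3 CPM in e4, against 29.97 and 23.0 CPM in e2, a log2 fold change of 1.68 (SE 0.38, adjusted p = 0.00754, edgeR). Neither pair of ranges overlapped. FGFR2 had 26.4 and 27.0 CPM in e4, against 150 and 166 CPM in e2, a log2 fold change of -2.67 (SE 0.34, adjusted p = 7.88e-05, edgeR). FGF2, at 108 and 59.5 CPM in e4 and 206 and 203 CPM in e2, and FGFR1, at 280 and 227 CPM in e4 and 478 and 497 CPM in e2, were lower in e4 by log2 fold changes of -1.40 (SE 0.29) and -1.07 (SE 0.23), with adjusted p-values of 0.00378 and 0.005 (edgeR). Of the 10 members, 2 were thus higher and 3 lower, in a contrast that called 4.25% of 9010 genes higher and 7.1% lower. ETV4, ETV5, FGFR3, SPRY1 and SPRY2 passed in neither direction.

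**Figure D3:**
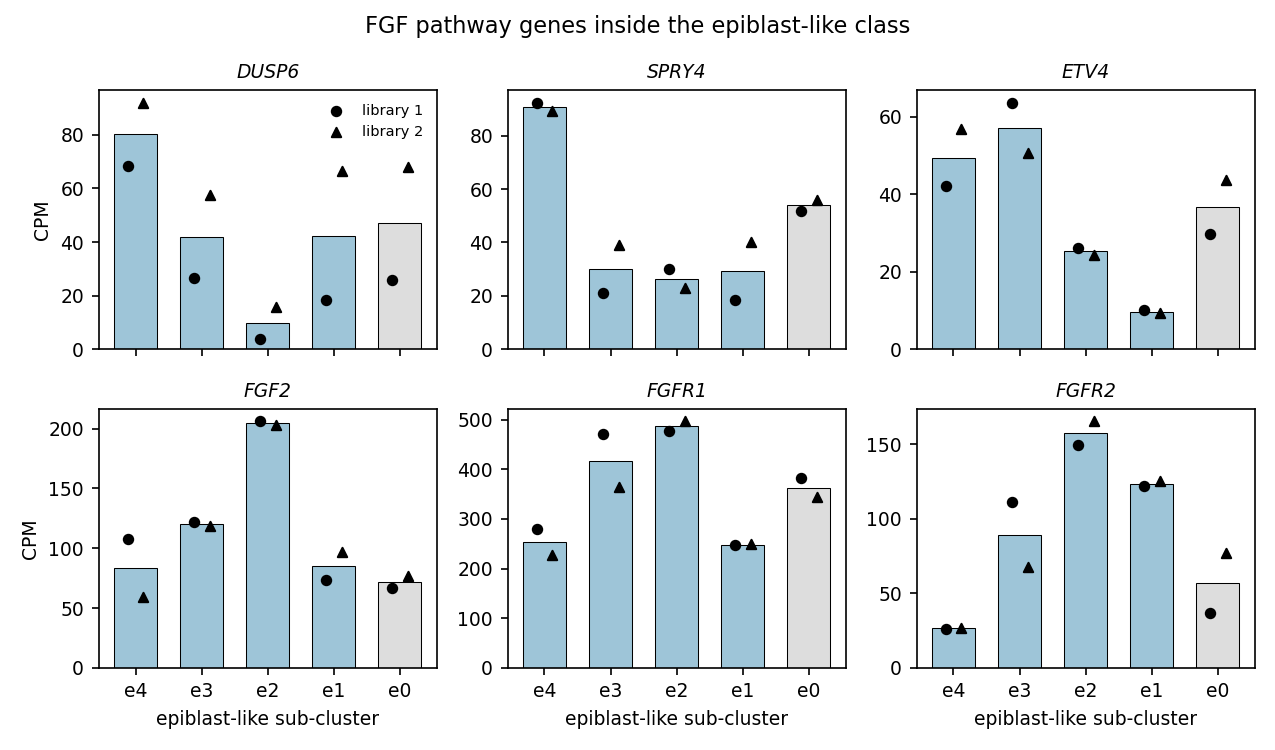
Levels (CPM) of 6 of the genes in the sub-clusters of the epiblast-like class, with 1 point per library and a bar at the mean of both; e0, in grey, had 9 cells in library 1 and was not tested. DUSP6 and SPRY4 were highest in the mesoderm-like e4 and FGF2 in e2, while FGFR2 in e4 stood at 26.4 and 27.0 CPM.

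Against e1, e4 was higher in SPRY4 (log2 fold change 1.57, SE 0.39) and ETV4 (2.19, SE 0.47) and lower in FGFR2 (-2.32, SE 0.35), with adjusted p-values of 0.0128, 0.00502 and 0.000328 (edgeR); this contrast called 4.86% of genes higher and 8.58% lower. ETV4 had 42.2 and 56.8 CPM in e4, against 10.0 and 9.48 CPM in e1. Against e3, FGFR2 alone was called, at 26.4 and 27.0 CPM in e4 and 111 and 67.6 CPM in e3 (log2 fold change -1.71, SE 0.38, adjusted p = 0.0137, edgeR), where 2.22% of genes were called lower and 3.64% higher. SPRY4 was close to the threshold in the same contrast (1.42, SE 0.41, adjusted p = 0.054, edgeR) and passed it in 3 other settings. FGFR2 was thus lower in e4 than in each of the other 3 sub-clusters tested, and the values of e4 overlapped none of theirs.

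Sub-cluster e2 stood apart in the other direction, with high FGF2 and FGFR1 and low DUSP6. Against e1, its FGF2 (log2 fold change 1.27, SE 0.28, adjusted p = 0.0136, edgeR) and FGFR1 (0.97, SE 0.22, adjusted p = 0.0185, edgeR) were higher and its DUSP6 lower (-1.998, SE 0.49, adjusted p = 0.0292, edgeR), where 1.71% of genes were called higher and 2.5% lower. FGF2 had 206 and 203 CPM in e2 against 73.4 and 97.2 CPM in e1, and FGFR1 had 478 and 497 CPM in e2 against 247 and 249 CPM in e1, with no overlap, while DUSP6 had 3.75 and 15.8 CPM in e2 against 18.4 and 66.3 CPM in e1. DUSP6 in e3, at 26.5 and 57.5 CPM, was higher than the 3.75 and 15.8 CPM in e2 (2.01, SE 0.51, adjusted p = 0.0357, edgeR), where 0.633% of genes were called higher and 3.46% lower. The DUSP6 calls of e2 against e1 and of e3 against e2 were lost in a fit without the library as a block, with adjusted p-values of 0.128 and 0.0823. In both libraries e2 had the lowest DUSP6 of all sub-clusters of that library. ETV4, at 63.6 and 50.7 CPM in e3 against 10.0 and 9.48 CPM in e1, was higher in e3 (2.43, SE 0.47, adjusted p = 0.00314, edgeR), where 2.75% of genes were called higher and 6.98% lower.

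Depth differed between these sub-clusters, with medians of 53769 and 51799 UMIs in e4, 14642 and 39695 in e3, and 71906 and 95460 in e2, and its part in the differences was not tested. Counts in the part tested were small: DUSP6 in e2 rested on 2 and 11 UMIs in libraries 1 and 2, and in e4 on 26 and 34.

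Some other ERK targets were also higher in e4. Of the 23 on the list, 15 were tested between e4 and e2, and 6 were higher, 2 lower and 7 in neither direction, in the contrast that called 4.25% of all genes higher and 7.1% lower. Those higher were the ephrin receptor EPHA4 (log2 fold change 5.11), the stress-induced IER3 (3.96), ETV1 (3.18), the ERK phosphatase DUSP5 (2.51), the RAS inhibitor SPRED2 (2.45) and IL17RD (2.28), and those lower were FOS (-2.07) and PHLDA1 (-1.83), named after their values were seen. IER3 had 277 and 406 CPM in e4 and 11.2 and 30.2 CPM in e2, and IL17RD had 142 and 184 CPM in e4 and 43.1 and 21.6 CPM in e2. Of the 18 genes of the RAS to ERK cascade that were tested, GAB1 alone was called, lower in e4 (-1.51).

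The ligand genes also differed by sub-cluster. With all UMIs counted, FGF17 was found in 8 of 14 e4 cells in library 1 (31 UMIs) and 10 of 16 in library 2 (101 UMIs), in 5 of 9 and 8 of 27 cells of e0 (50 and 69 UMIs), and in no cell of e2. FGF4 was found in 3 of 9 and 13 of 27 cells of e0 (11 and 98 UMIs) and in 4 of 14 and 9 of 16 cells of e4 (4 and 26 UMIs), and in none of e1 or e2. These counts of cells are descriptions, with no test. FGF13, which was lower in e4 than in e2 (log2 fold change -2.94, SE 0.36, adjusted p = 5.58e-05, edgeR), had 119 and 86.5 CPM in e4 and 886 and 576 CPM in e2.

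Some of the 10 genes also differed between clusters of the trophectoderm/amnion-like class. Clusters 0, 1, 3 and 6 had at least 20 cells in both libraries and were each tested against the mean of the others. In cluster 0, SPRY2 was higher, at 109 and 111 CPM against a class level of 71.6 and 77.1 CPM (log2 fold change 0.79, SE 0.11, adjusted p = 6.01e-06, edgeR), and FGFR2 lower, at 137 and 168 CPM (-0.45, SE 0.11, adjusted p = 0.00331, edgeR), where 17.4% of genes were called higher and 13.8% lower. In cluster 6, FGFR2 was higher, at 320 and 267 CPM (0.64, SE 0.13, adjusted p = 0.000178, edgeR), and SPRY2 lower, at 49.1 and 61.4 CPM (-0.71, SE 0.18, adjusted p = 0.00217, edgeR), where 17.2% were called higher and 17.4% lower. In either cluster 1 of the 10 members was called higher and 1 lower, a smaller part than over all genes. FGFR2 and SPRY2, the genes that were higher in this class than in epiblast-like cells, had opposite calls in clusters 0 and 6. Each of these clusters is in the mean that the other is set against, so the calls are not independent. The calls of FGFR2 in cluster 0 and SPRY2 in cluster 6 were lost once cluster 4 was let into the comparison, with adjusted p-values of 0.0927 and 0.273 (edgeR). Cluster 6 was shallow, with medians of 19674 and 20849 UMIs and 9.90% and 8.93% mitochondrial UMIs, against 6.23% and 6.16% over the class, and the part of these in its levels was not tested.

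In cluster 3, in which the cell division genes MKI67 and TOP2A were among the 10 leading genes, FGFR2 was lower, at 167 and 166 CPM (-0.35, SE 0.11, adjusted p = 0.0452, edgeR), where 2.5% of genes were called lower and 6.26% higher; 4 of the other settings lost this call. In cluster 1, the largest, FGF2 and ETV5 had unadjusted p-values of 0.0255 and 0.0381, and edgeR called none of the 10 after adjustment, where 8.81% of genes were called higher and 4.83% lower. In all of these clusters SPRY4 and ETV4 stayed under 10 CPM in either library.

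**Figure D4:**
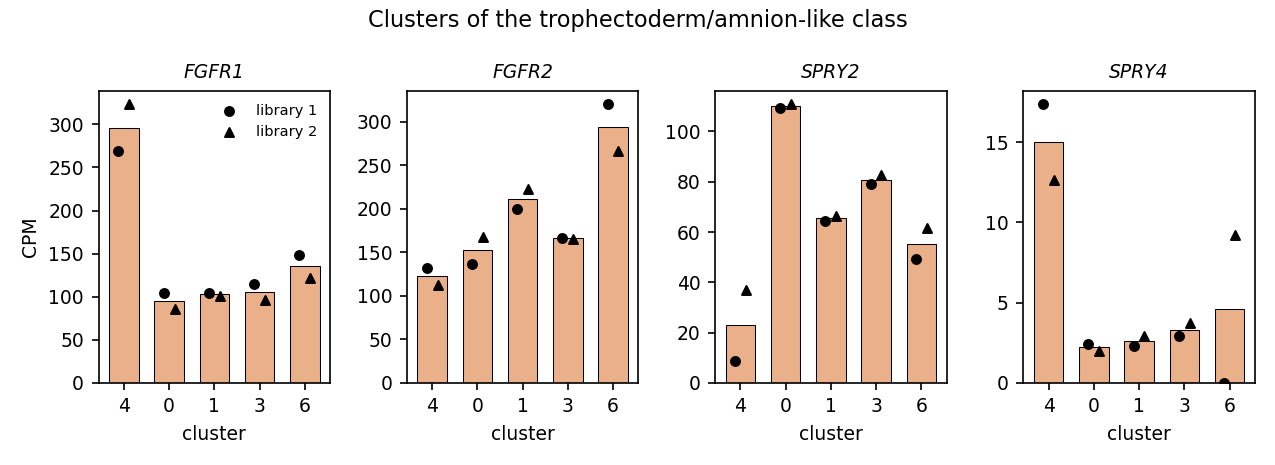
Levels (CPM) of 4 of the genes in the clusters of the trophectoderm/amnion-like class, with 1 point per library and a bar at the mean of both. FGFR1 stood at 269 and 323 CPM in cluster 4, SPRY2 was highest in cluster 0, and FGFR2 was highest in cluster 6, at 320 and 267 CPM.

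Cluster 4, of 19 cells in library 1 and 39 in library 2, had the most calls of these clusters. It was high in GATA3 (476 CPM) and GATA2 (125 CPM), and the endoderm marker APOA2 led its genes, at 48.3 and 154 CPM. The comparison with the other clusters was added after the data had been seen, with a minimum of 10 cells, and it called 20.9% of genes higher and 16.5% lower. FGFR1 had 269 and 323 CPM in cluster 4, against 118 and 111 CPM over the class, a log2 fold change of 1.52 (SE 0.13, adjusted p = 3.59e-10, edgeR). SPRY4 had 17.3 and 12.6 CPM in cluster 4, against 3.12 and 3.87 CPM over the class (2.32, SE 0.44, adjusted p = 0.000142, edgeR). DUSP6 had 4.96 and 28.0 CPM in cluster 4, against 6.06 and 7.36 CPM over the class (1.82, SE 0.47, adjusted p = 0.00337, edgeR), so library 2 alone was above the class level. In cluster 4, FGF2 was lower, at 7.43 and 5.42 CPM (-1.53, SE 0.37), as were SPRY2, at 8.67 and 37.0 CPM (-1.55, SE 0.24), and FGFR2, at 133 and 113 CPM (-0.64, SE 0.14), with adjusted p-values of 0.0019, 9.29e-06 and 0.00064 (edgeR). These receptor calls, with FGFR1 higher and FGFR2 lower, are against the other clusters of the class and not against epiblast-like cells. In epiblast-like cells FGFR1 stood at 356 and 357 CPM and FGFR2 at 98.5 and 98.8 CPM. The FGFR1 of cluster 4 was below those values and its FGFR2 above them, the same directions as in the class as a whole. Of the other ERK targets, FOS (log2 fold change 3.14), DUSP5 (2.12), EGR1 (1.52), EPHA4, RASA1 and CCND1 were higher and SPRED1, SPRED2 and IL17RD lower among 18 tested, named after their values were seen.

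In the syncytiotrophoblast-like cluster the hormone gene CGA stood at 494 and 168 CPM. In the part of the UMIs used for levels, FGFR2 had 19.6 and 25.8 CPM, or 7 and 8 UMIs. FGFR1 had 135 and 219 CPM, or 48 and 68 UMIs of that part. These cells had medians of 3431 and 4129 UMIs and of 0.0995% and 1.87% mitochondrial UMIs. The trophectoderm/amnion-like class had 6.23% and 6.16%. How depth and mitochondrial share bear on the levels of the cluster was not tested. In the part used for levels, ETV5 had 0 UMIs and the members other than FGFR1 at most 11 in either library, at the limit of detection. With all UMIs counted, ETV5 had 1 and 3, SPRY2 33 and 22, and FGFR2 18 and 24 in libraries 1 and 2. The cluster was not set against another class in a test of its own.

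**Figure D5:**
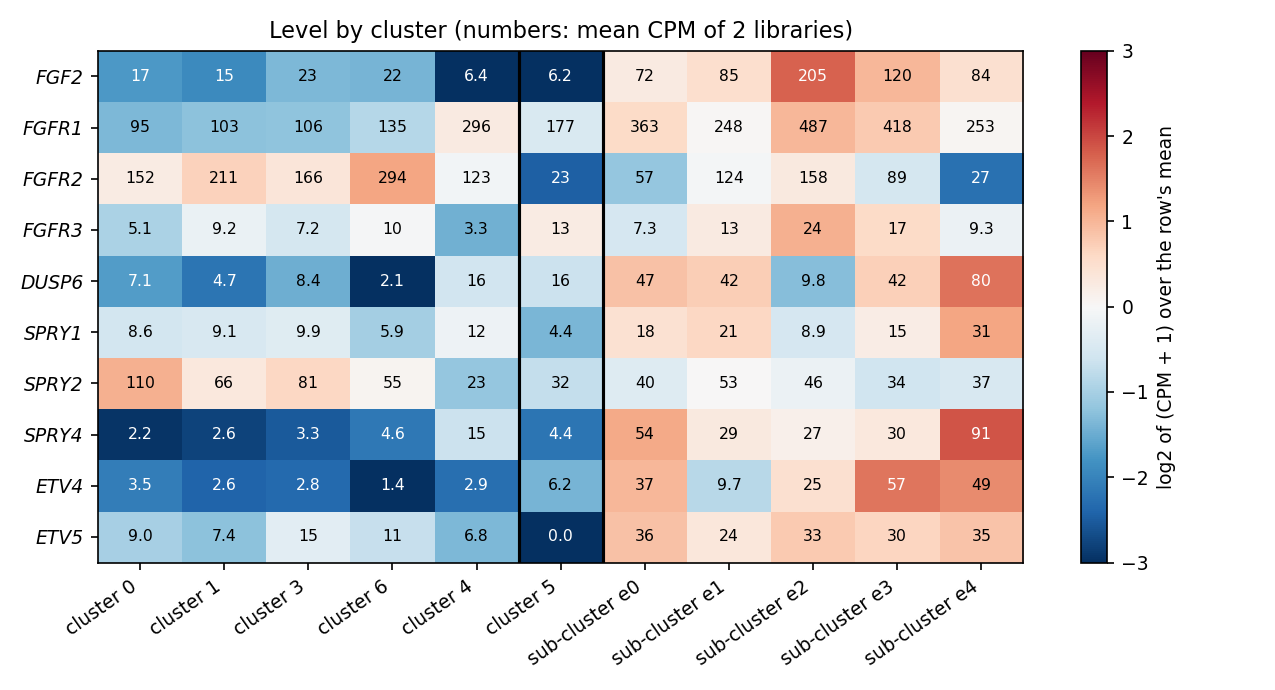
Mean level of each gene in each cluster or epiblast-like sub-cluster (numbers, CPM, mean of 2 libraries), coloured by log2 of CPM + 1 over the mean of the row. Vertical lines separate the trophectoderm/amnion-like clusters (left), the syncytiotrophoblast-like cluster 5 and the epiblast-like sub-clusters (right). SPRY4 and ETV4 were high in the epiblast-like sub-clusters, and FGFR2 was high in clusters 1 and 6 and low in cluster 5 and in e4.

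In order of level, FGF2 was highest in e2, followed by e3, and its values in e0, e1 and e4, between 59.5 and 108 CPM, overlapped. The lowest epiblast-like value, 59.5 CPM in e4 of library 2, was above the highest value of the tested trophectoderm/amnion-like clusters, 27.6 CPM in cluster 6 of the same library. For DUSP6 the order in the epiblast-like class ran from e4 to e2, and the values of e0, e1 and e3 overlapped. The 3.75 CPM of e2 in library 1 was within the range of the trophectoderm/amnion-like clusters.

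Over the 14 clusters and sub-clusters with at least 20 cells, the genes whose log2(CPM + 1) followed that of FGF2 most closely, among 11391 genes, were VCAN (Pearson r = 0.956), CRABP1 (0.950), RPSA2 (0.948), GXYLT2 (0.946) and LRP4 (0.945). For DUSP6 they were UMPS (0.958), PAM16 (0.957), GTPBP4 (0.957), DNAJB11 (0.955) and PITHD1 (0.951). These coefficients are descriptions only: the clusters share libraries, their depth differs widely, and the epiblast-like cells enter both as cluster 7 and as its sub-clusters e0 to e4.

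The gene bodies lie, in the GRCh38.p14 RefSeq annotation, at chr4:122826682-122898236 for FGF2, chr10:121478330-121598458 for FGFR2, chr12:89347235-89352501 for DUSP6, chr13:80335976-80341126 for SPRY2, chr5:142310430-142325021 for SPRY4, chr17:43527846-43546340 for ETV4 and chr3:186046314-186109089 for ETV5. FGF2 overlaps NUDT6 by 5660 bases, ETV4 overlaps the helicase gene DHX8 by 16954 and SPRY4 overlaps SPRY4-IT1 by 703. DUSP6 overlaps the readthrough gene POC1B-DUSP6 by 4437 bases, which is most of the DUSP6 gene body. ETV5 overlaps 2 RNA genes by 2988 and 1778 bases, and FGFR1 overlaps an RNA gene by 1869 and a pseudogene by 504. The sources used here do not say whether counting used the strand or how it treated reads that 2 genes share. NUDT6 had 9.18 and 8.02 CPM in trophectoderm/amnion-like cells and 10.2 and 7.92 CPM in epiblast-like cells, with overlapping values, unlike FGF2. SPRY4-AS1, a neighbour that does not overlap SPRY4 in this annotation, was lower with SPRY4 in trophectoderm/amnion-like cells (log2 fold change -2.25), and DHX8 was lower with ETV4 by less (-0.61). If counting did not use the strand, reads of genes that overlap on opposite strands cannot be told apart.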

How the data were processed

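For each library the authors deposited a matrix of unnormalised UMI counts (genes by barcodes), made per the labels' protocols with droplet 3' chemistry (v3.1) that reads polyadenylated RNA. Cell Ranger 9.0.0 and the build GRCh38 were used, per the submitters' processing notes; the sources used here do not give the use of strand or of intronic reads. From these counts, barcodes were kept from 1000 genes upward and up to 20% mitochondrial UMIs, and scrublet (in scanpy 1.11.5, 0.8% expected per 1000 barcodes) removed 4 barcodes of library 1 and 1 of library 2. It finds few doublets here, and doublets of like cells stay in. Over all barcodes, 1 barcode sequence occurs in both libraries.

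UMIs were split at random into part A and part B. Part A, without the 10 members, the pathway lists, mitochondrial and ribosomal protein genes, was normalised to 10000 per cell, reduced to 2000 variable genes and 30 principal components, and clustered by Leiden (15 neighbours, resolution 0.5, with libraries not batch-corrected). Names came from 10 marker lists; clusters with a median depth under 1/3 of their library and no marker of the name among their 10 leading genes stayed unnamed. Epiblast-like cells were clustered again in the same way. Members and lists were chosen with earlier results of these data known.

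Sums of part B per library were taken by class (at least 20 cells in both libraries), cluster, or sub-cluster (at least 10 cells), and tested with edgeR 4.0.16 (TMM, filterByExpr, quasi-likelihood, library as a block, Benjamini-Hochberg over all genes tested, threshold 0.05). The library is the block because each library holds cells of every class. All named classes and the unnamed clusters of that size shared the classes fit, so its count filter was set over shallow sums too. Standard errors (SE) are the size of the log2 fold change over the root of the F statistic. Residual degrees of freedom were 4 for classes, 7 for clusters and 3 for sub-clusters. CPM gives part B UMIs per 1000000 UMIs of the same cells; levels over all cells, cells with a UMI and UMI shares used all UMIs. The fits were also run on simulated counts in which few genes differed between classes, unlike these data. No result here rests on that simulation. Named genes were the 10 members, up to 6 called genes per pathway list with at least 10 CPM in the higher class, and the 5 genes most like FGF2 and DUSP6. A gene that this rule names in a pathway list is not reported here. Counts of cells with a UMI carry exact Clopper-Pearson intervals at 95%. Alternatives were other scaling, DESeq2 1.42.0, no count filter, other splits of the UMIs, all UMIs, other cell filters, another resolution, no library block, each library alone, and classes without doubtful clusters.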

Additional observations from a re-analysis of the deposited data

Results flagged for a closer look

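The members' UMIs outside the analysed cells were counted because these barcodes enter no comparison. Barcodes outside the filter held 538 UMIs of the 10 genes in library 1 and 555 in library 2, among 1197835 and 1255670 UMIs in all. Their summed level was 449 and 442 CPM, against 466 and 482 CPM in the cells of libraries 1 and 2. FGF2 stood at 38.4 and 37.4 CPM in these barcodes and at 28.4 and 30.7 CPM in the cells, while SPRY2 stood at 51.8 and 48.6 CPM in these barcodes and 66.9 and 73.0 CPM in the cells. SPRY4 differed between the libraries in these barcodes, at 8.35 and 2.39 CPM. Which cells this RNA came from was not tested.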

How the results depend on the processing

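Under the 13 other settings of the comparison of classes, all 8 calls of members held, and FGFR3 was called in 6 of the 12 that tested it, among them the fit without the replicate block (log2 fold change -0.95, adjusted p = 0.0283, edgeR). That fit changed no other call between the classes. The counts over all genes were less stable than the members. The count of genes called higher, 1550, became 2390 with no filter on low counts, 3327 with another split of the UMIs, 2466 with the parts exchanged, 3261 with cells of 5000 UMIs or more, 2498 with no barcode filter and 2398 at resolution 1.0. The count of those called lower, 2188, became 3355 with another split, 3637 with the parts exchanged and 4206 at resolution 1.0; the cause was not tested. The share of calls that were higher was 41.5%, and it ranged from 36.3% at resolution 1.0 to 50.8% with doublets kept, while the all-gene median of the log2 fold change ranged from -0.18 to 0.05. Within the trophectoderm/amnion-like class, the 2 higher calls of members, summed over clusters 0, 1, 3 and 6, became 4 with no count filter and 5 with a minimum of 10 cells, an alternative chosen after seeing the data. It adds cluster 4 to the mean the others are set against, and the 3 higher calls of cluster 4 itself are not in that sum. The mean number of members seen per thinned cell moved to 0.697 (2000 UMIs) and 3.92 (no thinning) in trophectoderm/amnion-like cells and to 1.15 and 6.24 in epiblast-like cells. No member's fold change between classes turned sign under any setting run. With 1 library alone a fit has no residual degrees of freedom, so each library gives a fold with no test; for DUSP6 these were -2.11 and -2.97. Sparse members (ETV4, SPRY4, SPRY1, FGFR3) limit what clusters of few cells can show.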

Other observations

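FGF17 was concentrated in a few cells of the dividing trophectoderm/amnion-like cluster 3 in library 2, where 94 UMIs lay in 9 of 195 cells and 55 of them in 1 cell; in library 1 the cluster had 2 UMIs. The 7 cells of library 2 with at least 2 FGF17 UMIs, chosen after their values were seen, held CER1 at 558 CPM, SOX17 at 222 CPM, EOMES at 154 CPM and POU5F1 at 250 CPM, against 0, 0, 0 and 31.7 CPM in the other 188 cells. SOX2 had 0 UMIs in the 7 cells. The 7 cells also held markers of their own class, with GABRP at 345 CPM and GATA3 at 63.6 CPM, against 425 and 102.7 CPM in the 188. Whether they are doublets was not tested. FGF2 stood at 86.3 CPM in the 7 cells and 19.7 CPM in the 188, SPRY4 at 27.2 and 2.46 CPM, and ETV4 at 18.2 and 2.46 CPM, the SPRY4 and ETV4 levels of the 7 cells resting on 6 and 4 UMIs. FGFR1, DUSP6 and ETV5 were also higher in the 7 cells. FGFR2 (163 and 170 CPM), SPRY2 (72.6 and 82.9 CPM), FGFR3 (4.54 and 5.04 CPM) and SPRY1 (0 and 7.16 CPM) were not. They are 7 cells of 1 library, so no test was made.

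FGF18 UMIs were also uneven. In sub-cluster e2 of library 1, 18 UMIs lay in 1 cell, and in the syncytiotrophoblast-like cluster of library 1, 13 UMIs lay in 2 cells. FGF10 was seen in 57 and 54 trophectoderm/amnion-like cells of libraries 1 and 2, with 144 and 117 UMIs, and in 4 and 6 epiblast-like cells, with 7 and 9 UMIs.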
